A study of Mus musculus with 12 samples.

Results

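The genes described here encode matrix metalloproteinases (Mmp), ADAMTS proteases (Adamts) and the tissue inhibitors of metalloproteinases (Timp). Every gene whose symbol is Mmp, Adamts or Timp followed by a number alone was taken, and each is represented by its brightest probe set over the 12 arrays. This gave 42 of the 19938 genes measured by a probe set with a single gene symbol, namely 20 Mmp, 18 Adamts and 4 Timp genes. Mmp15 and Adamts2 are not analysed here.

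RNA from mouse cells was hybridised to 12 whole-transcript arrays in 4 groups of 3. ESC were cells of V6.5, an established mouse embryonic stem cell line, grown in DMEM with 15% serum and 1000 IU/ml of leukemia inhibitory factor, and no genotype is given for them. null_EB were embryoid bodies that formed from lung endothelial cells lacking CD47, a receptor for thrombospondin-1, of C57Bl/6 mice. These cells had been passaged for 6 months and then seeded in basal endothelial medium without serum, where the bodies appeared within 24 to 36 h. null_EC were CD47 null lung endothelial cells of C57Bl/6 mice, and WT_EC were wild-type lung endothelial cells of the same strain, both in the growth medium EGM2. Medium differs between ESC, null_EB and the EC groups, so its part cannot be told apart from that of the group, and a passage time is given for null_EB only. Whether the replicates came from different animals or cultures is not stated, so the p-values measure the spread between these samples, which may be technical.

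Matrix metalloproteinases are zinc-dependent enzymes that are made as inactive precursors and cleave collagens, proteoglycans, laminins and many cell surface proteins. ADAMTS proteases share the metalloproteinase domain and carry thrombospondin type repeats, and different members cleave aggrecan and versican, trim procollagens or act on microfibrils. TIMPs bind the active site of these enzymes, and endothelial cells use the balance of both sides when they sprout through basement membrane.

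A row of 10 neighbouring genes on chromosome 9, in the order Mmp13, Mmp12, Mmp1b, Mmp3, Mmp1a, Mmp10, Mmp8, Mmp27, Mmp20 and Mmp7, holds 8 of the 42 genes. The 100 bases before the transcription start are shown for 4 of them, because these genes gave the largest differences among the groups or among the WT_EC arrays. Sequences are from RefSeq on GRCm38.p6 and all lie on the plus strand. Capitals mark TGAGTCA or its reverse complement TGACTCA, the heptamer bound by AP-1 factors, searched on both strands. The windows are chr9:7272414-7272513 for Mmp13, chr9:7445722-7445821 for Mmp3, chr9:7502242-7502341 for Mmp10 and chr9:7558329-7558428 for Mmp8.
Mmp13: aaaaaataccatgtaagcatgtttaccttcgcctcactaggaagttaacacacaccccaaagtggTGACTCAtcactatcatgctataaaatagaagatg
Mmp3: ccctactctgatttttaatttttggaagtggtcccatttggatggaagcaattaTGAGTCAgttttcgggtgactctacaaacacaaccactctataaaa
Mmp10: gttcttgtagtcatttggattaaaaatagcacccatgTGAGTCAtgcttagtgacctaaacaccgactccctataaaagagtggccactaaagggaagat
Mmp8: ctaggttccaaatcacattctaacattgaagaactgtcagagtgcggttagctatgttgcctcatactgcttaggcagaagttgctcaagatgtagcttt
The heptamer begins 35 bases before the start in Mmp13, 46 in Mmp3 and 63 in Mmp10, and it is not among the letters of the Mmp8 window. The promoter table matched 28 of the 42 genes, with 31 promoters. The heptamer stood in 5 of these 31 windows of 100 bases (16.1%), against 619 of 32851 promoters in all (1.88%). These were a window each of Mmp3, Mmp7, Mmp10, Mmp12 and Mmp13, and all 5 genes belong to the chromosome 9 row. Mmp7 and Mmp12 each had another promoter window without the heptamer. A match is a description of letters and says nothing of binding.

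The values are log2 signals, and differences are log2 differences with the standard error (SE) of limma. Adjusted p-values are Benjamini-Hochberg values over the 19938 genes of a comparison, and genes with one under 0.05 are those called. A mean below 8.01, the median of all values, is described as low signal, since no detection calls were used. Group values are means ± SD of 3 arrays. Probe sets bind differently, so the level of 1 gene is never set against that of another.

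Cd47 signal was 10.96 to 11.33 in ESC, 10.89 to 10.99 in null_EB, 10.97 to 11.11 in null_EC and 11.29 to 12.59 in WT_EC, and the files do not say which exons its probe set covers. Pecam1, Tek, Tie1, Erg, Emcn and Cldn5, defining endothelial genes, had low signal in null_EB, null_EC and WT_EC alike. Kdr, Cdh5 and Esam, of the same marker list, were above low signal in at least 1 of these groups. Kdr had 10.83, 10.74 and 10.52 in null_EC, 8.51, 8.61 and 9.35 in WT_EC and a mean of 7.34 in null_EB. In WT_EC, Cdh5 had 9.10, 6.85 and 9.52 and Esam 10.34, 6.97 and 9.53. Both had low signal in null_EC and null_EB. Of the 9 endothelium markers, 2 were above low signal in ESC, 0 in null_EB, 1 in null_EC and 3 in WT_EC. Of the 7 fibroblast markers, 5, 5 and 5 were above low signal in ESC, null_EB and null_EC, and 7 in WT_EC. Whether ESC were grown on feeder cells is not stated, and the part of other cells in the ESC values was not tested. All 6 mesothelium markers were above low signal in null_EB, null_EC and WT_EC, against 2 of 6 in ESC. The cells are therefore called by their labels only. The median of the 9 macrophage and leukocyte markers was 10.07 on WT_EC 3, against 7.84 on WT_EC 1, 6.75 on WT_EC 2 and 6.68 to 6.99 on the other 9 arrays. Arrays of WT_EC correlated with each other at 0.954 to 0.968, and those of null_EC at 0.996 to 0.997.

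**Figure D1:**
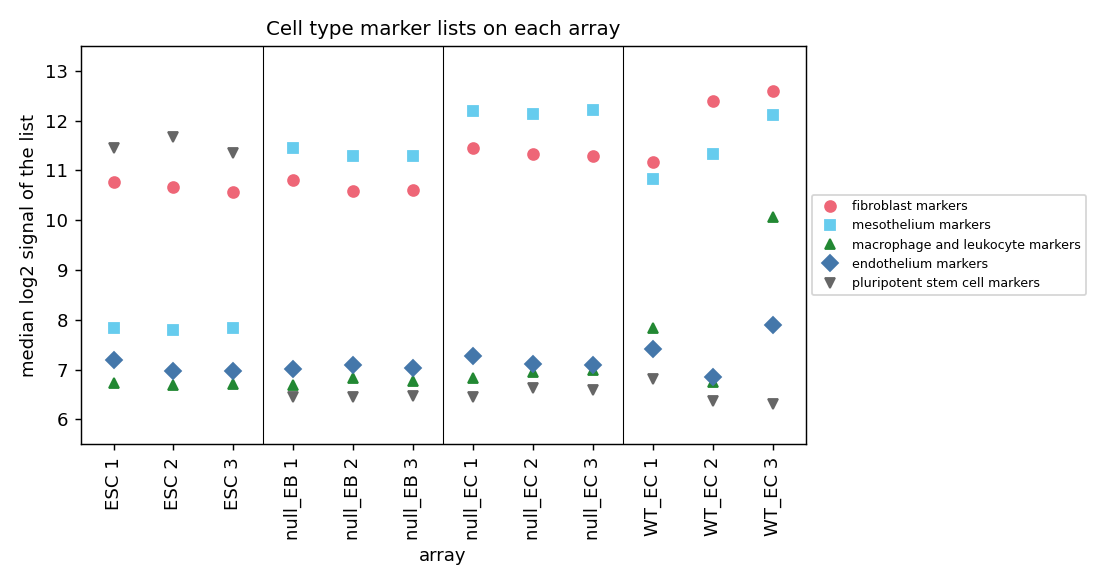
Median log2 signal (y axis) of 5 cell type marker lists on each of the 12 arrays (x axis), with vertical lines between the groups. The pluripotent stem cell markers are high in ESC only, the endothelium markers stay between 6.85 and 7.90 on every array, and the macrophage and leukocyte markers reach 10.07 on WT_EC 3.

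Signals of these genes spread more widely over the WT_EC arrays than over the arrays of any other group. Within WT_EC, 22 of the 42 genes (52.4%) spanned at least 1 log2 unit, against 13.4% of all genes, and 0 of the 42 did so within ESC, null_EB or null_EC. The median SD of the 42 genes was 0.0878 in ESC, 0.0891 in null_EB, 0.0999 in null_EC and 0.553 in WT_EC. Of the 22, 8 were highest on WT_EC 1 (Mmp3, Mmp9, Mmp10, Mmp13, Adamts4, Adamts6, Adamts14 and Timp1), 4 on WT_EC 2 (Mmp16, Mmp23, Mmp27 and Mmp28) and 10 on WT_EC 3 (Mmp2, Mmp8, Mmp19, Adamts1, Adamts3, Adamts5, Adamts10, Adamts12, Adamts15 and Timp4). The macrophage and leukocyte markers were high on WT_EC 3 as well, with medians of 7.84, 6.75 and 10.07 on WT_EC 1, 2 and 3. The fibroblast (11.16, 12.39 and 12.60), mesothelium (10.83, 11.33 and 12.12), endothelium (7.42, 6.85 and 7.90) and epithelium (6.94, 6.99 and 7.43) medians were also highest there. The pluripotent stem cell median was highest on WT_EC 1 (6.82, 6.36 and 6.31). The part of these cell types in the 10 genes was not tested. Fewer cells of a type and less RNA per cell cannot be told apart in these bulk samples.

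**Figure D2:**
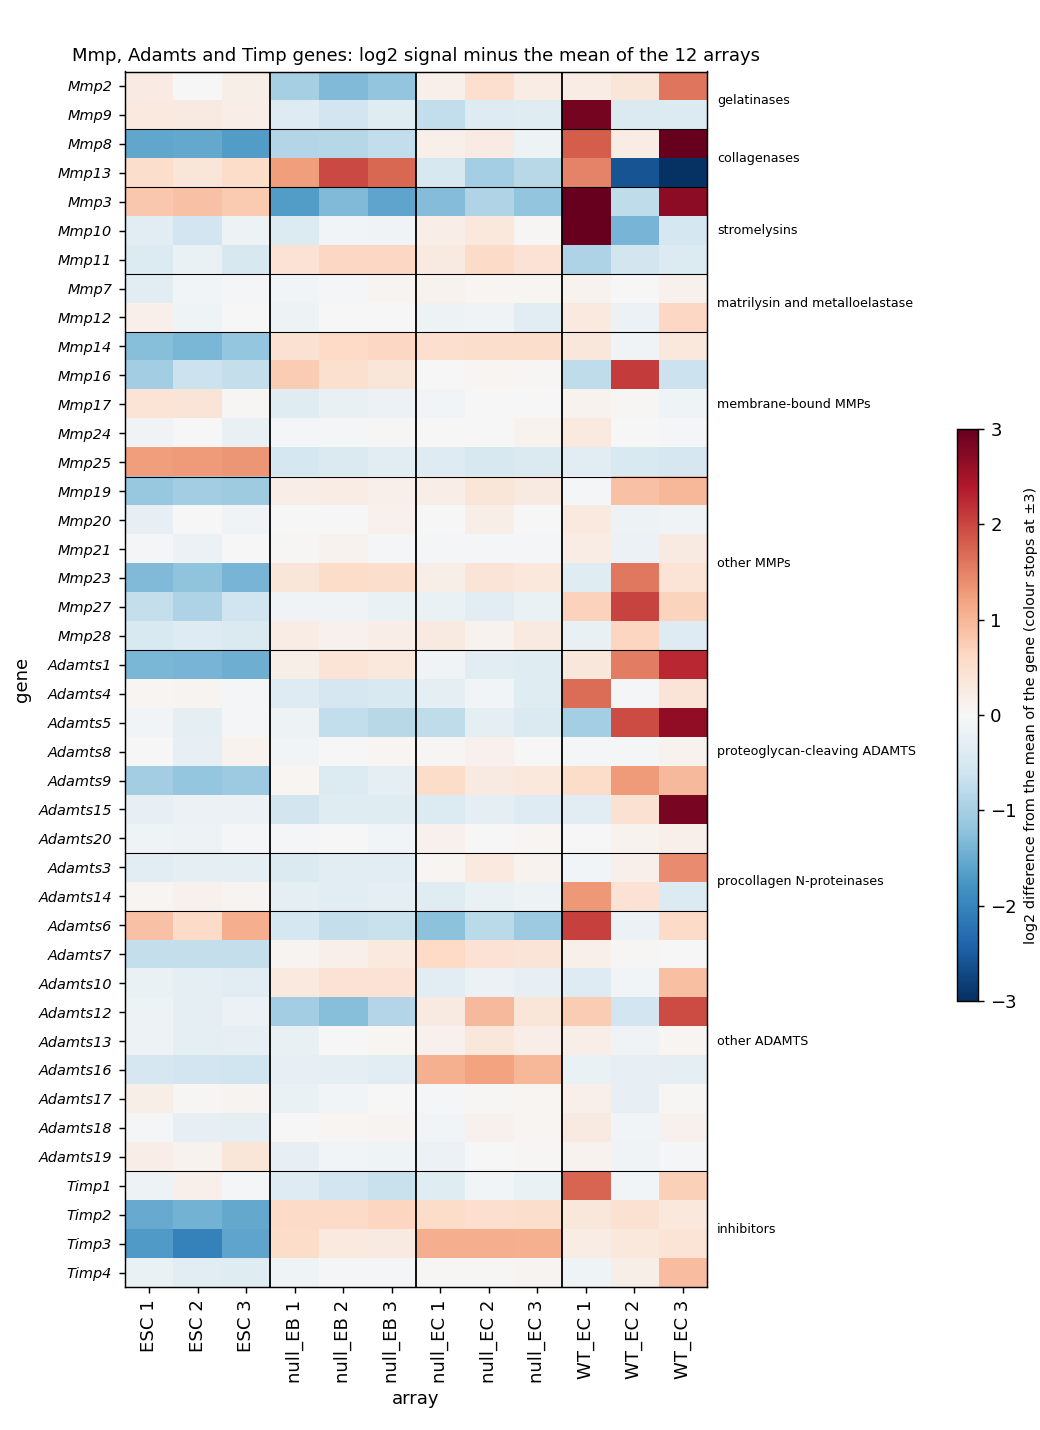
Log2 signal of the 42 genes (rows, grouped by role) on the 12 arrays (columns) minus the mean of the gene over the 12 arrays, with red above and blue below the mean and the colour stopping at 3 log2 units. The 3 arrays within ESC, null_EB and null_EC look alike, whereas different genes are red on each WT_EC array.

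In null_EC against WT_EC, 4 of the 42 genes were higher and 4 lower, beside 8.12% and 5.00% of all genes. The median difference of the 42 was -0.18, against 0.03 over all genes. In null_EB against null_EC, 0 were higher and 3 lower, beside 2.90% and 2.50% of all genes, and the medians were -0.08 for the 42 and -0.01 for all genes. In null_EB against WT_EC, 4 were higher and 9 lower, beside 12.3% and 6.19%, with medians of -0.13 and 0.02. Without adjustment, 9 of the 42 (21.4%) had a limma p below 0.05 in null_EB against null_EC, beside 17.5% of all genes. In null_EC and null_EB against WT_EC, 42.9% and 45.2% of the 42 did, beside 26.2% and 30.8% of all genes. In ESC against null_EC, null_EB and WT_EC, 45.2%, 47.6% and 50.0% did, beside 54.2%, 51.7% and 54.1%.

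In ESC against each lung group, more of the 42 genes were called lower than higher. Against null_EC, 4 of the 42 were higher (9.52%) and 13 lower (31.0%), beside 22.9% and 25.1% of all genes. Against null_EB, 6 were higher (14.3%) and 11 lower (26.2%), beside 21.8% and 23.0%, so the lower share was near that of all genes. Against WT_EC, 1 was higher (2.38%) and 16 lower (38.1%), beside 25.4% and 21.7%. The medians of the 42 were -0.20, -0.15 and -0.50 in these comparisons, against -0.09, -0.08 and -0.07 over all genes.

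The shares depended on the scaling. A shift that equalises the housekeeping genes moved the differences of all genes by -0.20 in ESC against null_EC, -0.31 against null_EB and -0.38 against WT_EC. Of the 10 housekeeping genes measured, 3 were themselves called higher and 1 lower in ESC against null_EC. The counts were 4 and 1 against null_EB, and 3 and 2 against WT_EC. This shift therefore rests on genes that partly differed between these groups. Against null_EC, 2 of the 42 were then higher and 18 lower (42.9%), beside 16.4% and 43.7% of all genes. Against null_EB, 4 were higher and 21 lower (50.0%), beside 13.5% and 56.1%. The lower share of the 42 under this shift was thus near that of all genes against null_EC and slightly below it against null_EB. Against WT_EC, 1 was higher and 31 lower (73.8%), beside 13.9% and 60.4%. Under a median shift ESC had 2 higher and 15 lower (35.7%) against null_EC, beside 20.1% and 36.5%, and 6 higher and 15 lower against null_EB, beside 18.9% and 34.7%. The housekeeping shift moved all differences by -0.18 in null_EC against WT_EC, by -0.07 in null_EB against WT_EC and by 0.11 in null_EB against null_EC. It gave 3 higher and 8 lower in null_EC against WT_EC, beside 2.17% and 7.46%. In null_EB against WT_EC it gave 2 and 9, beside 5.36% and 5.13%, and in null_EB against null_EC 0 and 3, beside 4.03% and 1.10%.

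The spread of WT_EC enters the shared error of all comparisons. Comparisons with WT_EC in turn share the smaller spread of the other groups, so their SE can be too small for genes that vary in WT_EC. With only the 6 arrays compared, calls against WT_EC fell from 8 to 3 in null_EC, 13 to 3 in null_EB and 17 to 12 in ESC. In a fit of the 9 arrays outside WT_EC, null_EB against null_EC had 5 of the 42 higher and 12 lower, beside 13.7% and 11.7% of all genes. ESC against null_EC then had 10 higher and 23 lower, beside 29.4% and 37.4%. ESC against null_EB had 14 higher and 18 lower, beside 28.8% and 35.8%. Of the 42 genes, 29 (69.0%) were called in at least 1 comparison of the 12-array fit and 13 in none, beside 63.5% of all genes called in at least 1.

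Collagenases open the fibrillar collagens, and their 2 measured genes gave large differences. Mmp13, collagenase-3 and the main interstitial collagenase of rodents, had signals of 10.38, 10.22 and 10.39 in ESC, 11.11, 11.84 and 11.57 in null_EB, 9.36, 8.84 and 9.01 in null_EC, and 11.34, 7.25 and 6.88 in WT_EC. Every null_EB array was above every ESC and null_EC array, and WT_EC held both the lowest arrays and 1 in the range of null_EB. In null_EB against null_EC the difference was 2.43 (SE 0.89, adjusted p = 0.167) in the 12-array fit. Without the WT_EC arrays the same difference had an SE of 0.158 and was called (5.40-fold, adjusted p = 1.88e-07), and so it was on leaving out WT_EC 1 alone. Relative to WT_EC, Mmp13 was 8.09-fold higher in null_EB (log2 difference 3.02, SE 0.89, adjusted p = 0.0384), although the arrays overlapped. That call was lost in 11 of the 12 fits that left out 1 array, all but the one without WT_EC 1 (lost at adjusted p = 0.0566 to 0.122), and the difference was 4.44 without WT_EC 1, 2.39 without WT_EC 2 and 2.21 without WT_EC 3. The call was also lost with only the 6 arrays compared (adjusted p = 0.214). ESC in the 9-array fit had more Mmp13 signal than null_EC (log2 difference 1.26, SE 0.158, adjusted p = 9.57e-06) and less than null_EB (-1.17, adjusted p = 1.97e-05). Mmp13 was chosen after its values were seen.

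Mmp8, the neutrophil collagenase, had 5.08, 5.10 and 4.97 in ESC, 5.77, 5.78 and 5.92 in null_EB, 6.81, 6.90 and 6.50 in null_EC, and 8.46, 6.86 and 11.61 in WT_EC. All ESC arrays lay below all null_EB arrays, and these below all null_EC arrays, at low signal in the 3 groups. Relative to WT_EC it was 15.2-fold lower in ESC (log2 difference -3.92, SE 0.86, adjusted p = 0.00305), a call kept in all alternatives, with a difference of -5.02 with array weights, -4.98 without WT_EC 2 and -2.61 without WT_EC 3. It was 8.87-fold lower in null_EB than in WT_EC (-3.15, SE 0.86, adjusted p = 0.0278), which was lost without any 1 null_EB array (adjusted p = 0.0759 to 0.0849), and the difference was -4.21 without WT_EC 2 and -1.83 without WT_EC 3. That call was also lost with only the 6 arrays compared (adjusted p = 0.187). For null_EC against WT_EC the difference was -2.23 (adjusted p = 0.122), and it was called without WT_EC 2 (-3.29, adjusted p = 0.00398). Mmp8 was lower in the 9-array fit in null_EB than in null_EC (-0.92, SE 0.0932, adjusted p = 1.04e-05). Its highest array was WT_EC 3, the array with the macrophage and leukocyte markers at 10.07. The fibroblast, mesothelium and endothelium medians of WT_EC were highest on that array too, and the part of these cell types in Mmp8 was not tested.

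Gelatinases cleave denatured collagen and basement membrane collagen. Mmp2, gelatinase A, had 11.69, 11.47 and 11.63 in ESC, 10.45, 10.13 and 10.27 in null_EB, 11.59, 11.95 and 11.67 in null_EC, and 11.66, 11.82 and 13.05 in WT_EC. All 3 null_EB arrays were below the other 9. It fell 2.74-fold in null_EB relative to null_EC (log2 difference -1.46, SE 0.29, adjusted p = 0.0166) and was 3.72-fold lower than in WT_EC (-1.90, SE 0.29, adjusted p = 0.00143). The call against null_EC was lost without null_EC 2, null_EC 3, null_EB 2 or null_EB 3 (adjusted p = 0.0620 to 0.0837), and in the 9-array fit it had adjusted p = 3.64e-07. ESC had 2.49-fold more signal than null_EB (1.32, SE 0.29, adjusted p = 0.00323). Between null_EC and WT_EC the difference was -0.44 (SE 0.29, adjusted p = 0.386), and WT_EC 3 was the one array far above the rest.

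Mmp9, gelatinase B, an enzyme of leukocytes and remodelling vessels, had 7.78, 7.75 and 7.68 in ESC, 7.10, 6.90 and 7.12 in null_EB, 6.74, 7.09 and 7.12 in null_EC, and 10.34, 7.04 and 7.07 in WT_EC. Only WT_EC 1 stood above low signal, while WT_EC 2 and WT_EC 3 lay among the null arrays. No comparison called it in the 12-array fit. In ESC against WT_EC the difference was -0.42 (adjusted p = 0.630), and without WT_EC 1 it was 0.68 (adjusted p = 0.000575), so 1 array decides its direction. In the 9-array fit ESC was higher than null_EC by 0.75 (adjusted p = 1.24e-05) and higher than null_EB by 0.69 (adjusted p = 2.80e-05).

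Stromelysins cleave proteoglycans and glycoproteins and activate other precursors. Mmp3, stromelysin-1, had 9.67, 9.72 and 9.64 in ESC, 7.17, 7.53 and 7.28 in null_EB, 7.55, 7.95 and 7.67 in null_EC, and 12.40, 8.10 and 11.53 in WT_EC. Both null groups lay below every ESC array and every WT_EC array, and the ESC values lay between those of WT_EC 2 and the other 2 WT_EC arrays. Relative to WT_EC, null_EC had 7.74-fold less Mmp3 signal (log2 difference -2.95, SE 0.81, adjusted p = 0.0360). That call held in 1 of the 12 fits that left out 1 array, the one without WT_EC 2 (-4.24, adjusted p = 1.10e-06), and was lost in the other 11 (adjusted p = 0.0552 to 0.119), with a difference of -2.09 without WT_EC 1. The call was also lost with only the 6 arrays compared and in the replicate block fit. In null_EB Mmp3 was 10.2-fold lower than in WT_EC (-3.35, SE 0.81, adjusted p = 0.0161), which was lost without null_EB 1 or null_EB 3 (adjusted p = 0.0541 to 0.0552), and the difference was -4.64 without WT_EC 2 and -2.49 without WT_EC 1. With only the 6 arrays compared this call was lost too (adjusted p = 0.148). ESC had 5.11-fold more than null_EB (2.35, SE 0.81, adjusted p = 0.0355), lost without any 1 null_EB or ESC array (adjusted p = 0.0697 to 0.0866). With the 9 arrays ESC was higher than null_EC by 1.96 (SE 0.105, adjusted p = 1.53e-09) and higher than null_EB by the same 2.35 (adjusted p = 2.86e-10).

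Mmp10, stromelysin-2, had 8.61, 8.36 and 8.78 in ESC, 8.54, 8.87 and 8.83 in null_EB, 9.14, 9.26 and 8.98 in null_EC, and 11.97, 7.54 and 8.41 in WT_EC. WT_EC 1 was the highest and WT_EC 2 the lowest of all 12 arrays. No comparison called it in the 12-array fit. Without WT_EC 1, null_EC was higher than WT_EC by 1.15 (adjusted p = 0.00551), against -0.18 (adjusted p = 0.928) with all arrays. Mmp10 was chosen after its values were seen.

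Mmp11, stromelysin-3, which furin activates before secretion, gave a steadier pattern. Its signals were 9.62, 9.84 and 9.56 in ESC, 10.46, 10.65 and 10.64 in null_EB, 10.30, 10.61 and 10.47 in null_EC, and 9.11, 9.48 and 9.61 in WT_EC. Both null groups stood above all ESC and WT_EC arrays. Relative to WT_EC, the signal was 2.09-fold higher in null_EC (log2 difference 1.06, SE 0.14, adjusted p = 0.000565) and 2.27-fold higher in null_EB (1.18, SE 0.14, adjusted p = 0.000285). ESC was lower than null_EC (-0.79, SE 0.14, adjusted p = 0.000596) and lower than null_EB (-0.91, SE 0.14, adjusted p = 0.000232). All 4 calls held in every alternative.

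**Figure D3:**
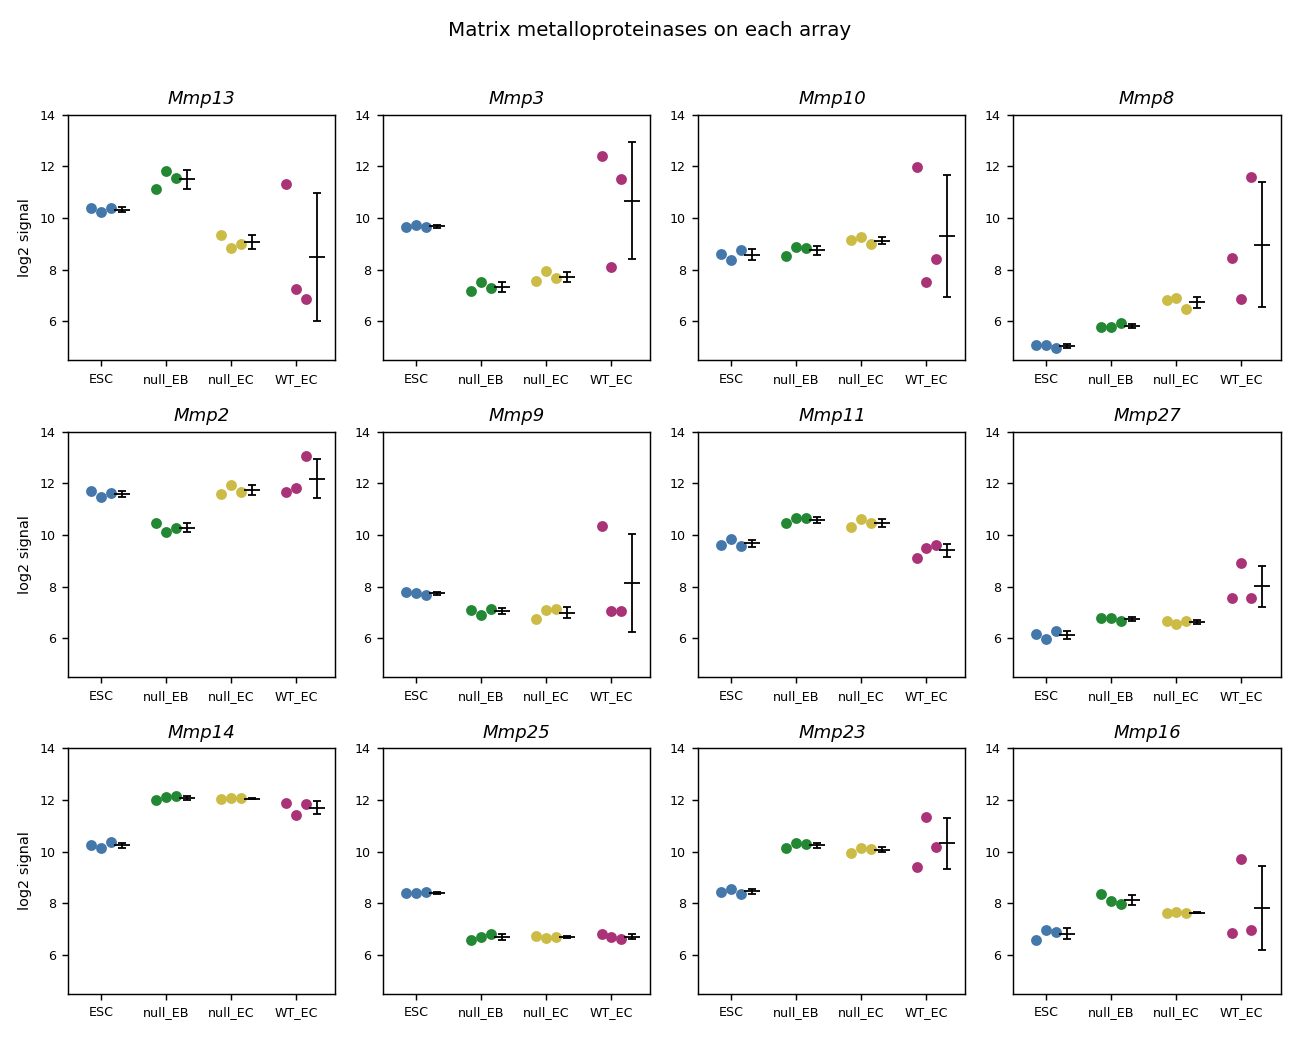
Log2 signal (y axis) of 12 Mmp genes in each group (x axis), with a coloured point for each array and a black bar for the mean ± SD of the 3 arrays. Mmp14, Mmp25 and Mmp11 have tight groups, whereas WT_EC points of Mmp13, Mmp3, Mmp10 and Mmp8 spread over several log2 units.

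Membrane-bound enzymes act at the cell surface, and 2 of the 5 measured genes marked ESC against every lung group. Mmp14 (MT1-MMP), which cleaves collagen at the cell surface and activates MMP2 with the help of TIMP2, had 10.24, 10.16 and 10.36 in ESC, 11.99, 12.12 and 12.15 in null_EB, 12.02, 12.06 and 12.06 in null_EC, and 11.87, 11.42 and 11.83 in WT_EC. All ESC arrays were below the other 9. ESC was 3.46-fold lower than null_EC (log2 difference -1.79, SE 0.11, adjusted p = 2.26e-07), 3.56-fold lower than null_EB (-1.83, adjusted p = 2.27e-07) and 2.73-fold lower than WT_EC (-1.45, adjusted p = 1.49e-06), each in every alternative. The lung groups were close. Mmp14 was 1.30-fold higher in null_EB than in WT_EC (0.38, SE 0.11, adjusted p = 0.0393), a call lost without any 1 null_EB, null_EC or ESC array (adjusted p = 0.0503 to 0.127), and the difference was 0.34 in null_EC against WT_EC (adjusted p = 0.0754) and 0.04 in null_EB against null_EC (adjusted p = 0.953). The call in null_EB against WT_EC was also lost under the housekeeping shift and with only the 6 arrays compared.

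Mmp25 (MT6-MMP, leukolysin), a lipid-anchored enzyme first known from neutrophils in human, moved the other way. It had 8.38, 8.40 and 8.44 in ESC, 6.59, 6.69 and 6.80 in null_EB, 6.74, 6.65 and 6.69 in null_EC, and 6.82, 6.68 and 6.63 in WT_EC. Signal was low on all 9 lung arrays and above them on each ESC array. ESC was 3.28-fold higher than null_EC (log2 difference 1.71, SE 0.08, adjusted p = 1.73e-08), 3.27-fold higher than null_EB (adjusted p = 2.06e-08) and 3.24-fold higher than WT_EC (adjusted p = 2.51e-08), in every alternative. It was the one gene of the 42 called higher in ESC against all 3 lung groups.

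Mmp17 (MT4-MMP), also lipid-anchored, had 7.95, 7.93 and 7.57 in ESC, 7.18, 7.30 and 7.36 in null_EB, 7.46, 7.53 and 7.51 in null_EC, and 7.63, 7.58 and 7.40 in WT_EC. All values were low, and ESC overlapped WT_EC. ESC was 1.45-fold higher than null_EB (log2 difference 0.53, SE 0.11, adjusted p = 0.00184), which was lost under the housekeeping shift, and 1.24-fold higher than null_EC (0.31, SE 0.11, adjusted p = 0.0335). The second call was lost without null_EC 1, 2 or 3 or ESC 1 or 2 (adjusted p = 0.0664 to 0.126) and under both shifts. Mmp16 (MT3-MMP) had 6.57, 6.97 and 6.90 in ESC, 8.36, 8.08 and 7.96 in null_EB, 7.62, 7.67 and 7.64 in null_EC, and 6.84, 9.71 and 6.95 in WT_EC. Only the WT_EC arrays overlapped other groups, with WT_EC 2 the highest of the 12. It was called in no comparison of the 12-array fit. It was in the 9-array fit higher in null_EB than in null_EC (0.49, SE 0.110, adjusted p = 0.00506) and lower in ESC than in null_EB (-1.32, adjusted p = 1.58e-07). Mmp16 was chosen after its values were seen. Mmp24 (MT5-MMP) stayed between 6.90 and 7.40 on all arrays and was not called.

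Of the remaining MMPs, Mmp23, Mmp19 and Mmp27 differed most. Mmp23, a membrane-tethered enzyme that furin releases, had 8.45, 8.56 and 8.37 in ESC, 10.13, 10.32 and 10.30 in null_EB, 9.96, 10.16 and 10.09 in null_EC, and 9.42, 11.36 and 10.18 in WT_EC. ESC lay below every other array. ESC was 3.05-fold lower than null_EC (log2 difference -1.61, SE 0.35, adjusted p = 0.00301), 3.45-fold lower than null_EB (-1.79, adjusted p = 0.00163) and 3.63-fold lower than WT_EC (-1.86, adjusted p = 0.00123), all in every alternative.

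Mmp27, of which little is known, had 6.16, 5.95 and 6.27 in ESC, 6.78, 6.78 and 6.67 in null_EB, 6.68, 6.53 and 6.67 in null_EC, and 7.56, 8.91 and 7.54 in WT_EC. Each WT_EC array was above the other 9, although 2 of the 3 were low. Mmp27 was 2.60-fold lower in null_EC (log2 difference -1.38, SE 0.29, adjusted p = 0.0104), 2.40-fold lower in null_EB (-1.26, adjusted p = 0.0128) and 3.68-fold lower in ESC (-1.88, adjusted p = 0.000288) than in WT_EC. The calls for null_EC and null_EB were lost with only the 6 arrays compared (adjusted p = 0.133 and 0.128). Mmp19, a secreted enzyme of many tissues, had 7.77 to 7.87 in ESC, 9.05 to 9.12 in null_EB, 9.09 to 9.27 in null_EC and 8.87 to 9.90 in WT_EC, and was lower in ESC than in null_EC (-1.35, adjusted p = 0.000260), null_EB (-1.27, adjusted p = 0.000459) and WT_EC (-1.69, adjusted p = 5.38e-05). Mmp28 (epilysin) averaged 7.50 ± 0.0329 in ESC, 8.10 ± 0.0485 in null_EB, 8.13 ± 0.0849 in null_EC and 7.93 ± 0.562 in WT_EC. Its calls in ESC against null_EC (-0.63, adjusted p = 0.0275) and against null_EB (-0.61, adjusted p = 0.0354) were lost on leaving out single arrays of these groups, the first without null_EC 1, null_EC 3 or any ESC array (adjusted p = 0.0596 to 0.0763) and the second without any array of either group (adjusted p = 0.0703 to 0.0864).

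Mmp7 (matrilysin), Mmp12 (metalloelastase of macrophages), Mmp20 (enamelysin of teeth) and Mmp21 (needed for left-right asymmetry) had low signal in every group. Mmp12 lay between 6.49 and 7.46, with its highest array WT_EC 3. Mmp20 lay between 5.86 and 6.39 and Mmp21 between 6.32 and 6.76. Mmp7 was called in ESC against null_EC (6.31 ± 0.152 against 6.54 ± 0.0257, adjusted p = 0.0450), and this call was lost without null_EC 1, 2 or 3, null_EB 1 or 2 or ESC 1 (adjusted p = 0.0516 to 0.179). The call was also lost in the replicate block fit. Low signal was shared by 14 of the 42 genes in every group: these 4, Mmp17, Mmp24, Mmp27, Adamts8, Adamts13, Adamts15, Adamts18, Adamts19, Adamts20 and Timp4.

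ADAMTS enzymes that cleave aggrecan and versican were led by Adamts1 and Adamts9. Adamts1, which cleaves versican and restrains angiogenesis, had 8.28, 8.26 and 8.17 in ESC, 9.82, 10.06 and 9.96 in null_EB, 9.53, 9.30 and 9.28 in null_EC, and 9.99, 11.18 and 11.91 in WT_EC. ESC was below all other arrays and null_EC below all WT_EC arrays, while WT_EC 1 lay within the values of null_EB. ESC was 6.92-fold lower than WT_EC (log2 difference -2.79, SE 0.35, adjusted p = 6.37e-05) and 3.27-fold lower than null_EB (-1.71, adjusted p = 0.00211), in every alternative. ESC was 2.19-fold lower than null_EC (-1.13, adjusted p = 0.0210), a call lost without null_EC 1, ESC 2 or ESC 3 (adjusted p = 0.0518 to 0.0663). null_EC was 3.15-fold lower than WT_EC (-1.66, SE 0.35, adjusted p = 0.0108), lost with only the 6 arrays compared (adjusted p = 0.138). In the 9-array fit null_EB exceeded null_EC by 0.58 (SE 0.0817, adjusted p = 0.000174).

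Adamts9, a versican protease of heart and vessel development, had 10.11, 9.99 and 10.06 in ESC, 11.22, 10.75 and 10.86 in null_EB, 11.69, 11.43 and 11.46 in null_EC, and 11.69, 12.43 and 12.12 in WT_EC. ESC and null_EB each stood clear of the other groups, and null_EC and WT_EC met at 11.69. ESC was lower than null_EC (log2 difference -1.47, adjusted p = 3.49e-05), null_EB (-0.89, adjusted p = 0.00153) and WT_EC (-2.03, SE 0.17, adjusted p = 3.29e-06). null_EB was 2.20-fold lower than WT_EC (-1.14, SE 0.17, adjusted p = 0.00143), and all 4 calls held in every alternative. With the 9 arrays alone null_EB was also lower than null_EC (-0.58, SE 0.107, adjusted p = 0.00127). The 6 probe sets of Adamts9 had the same order of group means, with ESC lowest and WT_EC highest.

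Adamts4 and Adamts5 are the aggrecanases of cartilage. Adamts5 had 9.45, 9.25 and 9.48 in ESC, 9.38, 8.79 and 8.70 in null_EB, 8.76, 9.26 and 9.09 in null_EC, and 8.51, 11.49 and 12.18 in WT_EC. WT_EC 1 held the lowest value and WT_EC 2 and 3 the highest, and Adamts5 was called in no comparison. Without WT_EC 1 it was lower in null_EC than in WT_EC by 2.80 (log2 difference -2.80, adjusted p = 4.85e-05), against -1.69 (adjusted p = 0.159) with all arrays. Adamts4 averaged 8.19 ± 0.0733 in ESC, 7.72 ± 0.0627 in null_EB, 7.92 ± 0.146 in null_EC and 8.84 ± 0.899 in WT_EC. It was called lower in null_EB than in WT_EC (-1.12, adjusted p = 0.0363), which was lost without any 1 null_EB, null_EC or ESC array (adjusted p = 0.0534 to 0.108). With only the 6 arrays compared the call was lost as well (adjusted p = 0.206). Adamts15, another proteoglycan-cleaving enzyme, was low on 11 arrays and 9.73 on WT_EC 3. Adamts5 and Adamts15 were chosen after their values were seen. Adamts8 and Adamts20 lay between 6.60 and 7.66 on all arrays. Adamts20 was called lower in ESC than in WT_EC (-0.21, adjusted p = 0.0274), lost without WT_EC 3, ESC 1 or ESC 2 (adjusted p = 0.0735 to 0.0875).

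Adamts3 and Adamts14 trim the amino-terminal propeptides of procollagens, and Adamts3 also takes part in VEGF-C processing. Adamts3 had 8.36 to 8.42 in ESC, 8.26 to 8.37 in null_EB, 8.74 to 8.99 in null_EC and 8.60 to 10.11 in WT_EC. In the 9-array fit it was lower in null_EB (log2 difference -0.51, SE 0.0711, adjusted p = 0.000159) and in ESC (-0.45, adjusted p = 8.50e-05) than in null_EC. Its call in ESC against WT_EC (-0.79, adjusted p = 0.0480) was lost without any 1 null_EB, null_EC or ESC array (adjusted p = 0.0626 to 0.106). That call was also lost with the mean of the probe sets and with only the 6 arrays compared. All 16 probe sets of Adamts3 had lower means in null_EB than in null_EC. Adamts14 had 8.33 to 8.40 in ESC, 7.95 to 7.99 in null_EB, 7.91 to 8.11 in null_EC and 7.86 to 9.56 in WT_EC, and was not called.

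Adamts16, reported to cleave fibronectin, was highest in null_EC. It had 6.63, 6.57 and 6.55 in ESC, 6.90, 6.87 and 6.81 in null_EB, 8.20, 8.34 and 8.14 in null_EC, and 6.94, 6.89 and 6.85 in WT_EC. The 3 null_EC arrays stood above the other 9, which were all low. Relative to WT_EC it was 2.52-fold higher in null_EC (log2 difference 1.33, SE 0.07, adjusted p = 4.30e-06), and it fell 2.58-fold in null_EB relative to null_EC (-1.36, SE 0.07, adjusted p = 5.01e-06). ESC was 3.12-fold lower than null_EC (-1.64, adjusted p = 1.13e-08) and slightly lower than null_EB (-0.28, adjusted p = 0.00748). These 4 calls held in every alternative. ESC was also lower than WT_EC (-0.31, adjusted p = 0.00379), which was lost with array weights.

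Adamts6, a protease of fibrillin microfibrils, had 8.80, 8.50 and 9.02 in ESC, 7.40, 7.21 and 7.25 in null_EB, 6.70, 7.11 and 6.84 in null_EC, and 9.97, 7.75 and 8.49 in WT_EC. Both null groups were below every ESC and WT_EC array. ESC was 3.70-fold higher than null_EC (log2 difference 1.89, SE 0.42, adjusted p = 0.00325), in every alternative, and 2.80-fold higher than null_EB (1.49, adjusted p = 0.0137), lost without ESC 3 (adjusted p = 0.0512). null_EC was 3.62-fold lower than WT_EC (-1.85, SE 0.42, adjusted p = 0.0148), lost without null_EC 1 or null_EC 3 (adjusted p = 0.0550 to 0.0652), with a difference of -1.24 without WT_EC 1. null_EB was 2.74-fold lower than WT_EC (-1.45, adjusted p = 0.0354), a call that held without any 1 WT_EC array or ESC 2 and was lost in the other 8 such fits (adjusted p = 0.0506 to 0.107), with a difference of -0.84 without WT_EC 1. Both calls against WT_EC were also lost with only the 6 arrays compared (adjusted p = 0.151 in null_EC and 0.195 in null_EB).

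Adamts7 and Adamts12 both cleave cartilage oligomeric matrix protein. Adamts7 had 8.55, 8.56 and 8.55 in ESC, 9.36, 9.43 and 9.57 in null_EB, 9.86, 9.70 and 9.66 in null_EC, and 9.42, 9.31 and 9.27 in WT_EC. ESC was lowest and null_EC highest, with no overlap between null_EC and WT_EC. ESC was lower than null_EC (log2 difference -1.18, SE 0.08, adjusted p = 4.39e-07), null_EB (-0.90, adjusted p = 4.38e-06) and WT_EC (-0.78, adjusted p = 1.42e-05) in every alternative. null_EC was 1.32-fold higher than WT_EC (0.41, SE 0.08, adjusted p = 0.00751), a call lost under the housekeeping shift, with only the 6 arrays compared and with array weights. Adamts12 had 8.63, 8.52 and 8.61 in ESC, 7.74, 7.51 and 7.89 in null_EB, 9.06, 9.76 and 9.15 in null_EC, and 9.55, 8.20 and 10.74 in WT_EC. The null_EB arrays were below all others. It was 3.45-fold lower in null_EB than in WT_EC (-1.79, SE 0.48, adjusted p = 0.0251), lost without any 1 null_EB array (adjusted p = 0.0620 to 0.0903), with a difference of -2.43 without WT_EC 2 and -1.16 without WT_EC 3. That call was also lost with only the 6 arrays compared (adjusted p = 0.167). In null_EB against null_EC the difference was -1.61 (SE 0.48, adjusted p = 0.0834), and it was called in the 9-array fit (SE 0.149, adjusted p = 4.33e-06) and without WT_EC 2 or WT_EC 3.

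Adamts10, another enzyme tied to microfibrils, had 9.18, 9.08 and 9.05 in ESC, 9.66, 9.80 and 9.82 in null_EB, and 9.04, 9.19 and 9.12 in null_EC. Its mean in WT_EC was 9.53 ± 0.677, with 10.29 on WT_EC 3. Among the 9 arrays outside WT_EC, null_EB was highest, and in their fit it exceeded null_EC by 0.64 (SE 0.0672, adjusted p = 1.29e-05) and ESC was below it (log2 difference -0.66, adjusted p = 1.26e-06). It was not called with all 12 arrays and was chosen after its values were seen. Adamts13, which cuts von Willebrand factor, had low signal, and its call in ESC against null_EC (-0.45, adjusted p = 0.00379) held in every alternative. Its call in ESC against WT_EC (-0.28, adjusted p = 0.0441) held only without WT_EC 2 or null_EB 1 among the 12 fits that left out 1 array (otherwise adjusted p = 0.0504 to 0.120). Adamts17 had 9.60 to 10.01 over all arrays and no call, and its 5 probe sets differed in the order of the groups. Adamts18 was called lower in ESC than in WT_EC (-0.28, adjusted p = 0.0380) with overlapping arrays. That call was lost in 8 of the 12 fits that left out 1 array, all but those without WT_EC 2, null_EC 1, null_EC 2 or ESC 1 (adjusted p = 0.0506 to 0.122). Only the 6 arrays compared, array weights and the replicate block each lost the Adamts13 and Adamts18 calls against WT_EC too.

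Adamts19 had low signal of 6.71, 6.63 and 6.87 in ESC, 6.26, 6.43 and 6.39 in null_EB, 6.34, 6.50 and 6.56 in null_EC, and 6.61, 6.41 and 6.47 in WT_EC. It was called higher in ESC than in null_EB (log2 difference 0.37, SE 0.09, adjusted p = 0.00644), lost under the housekeeping shift. It was also called higher than in null_EC (0.27, SE 0.09, adjusted p = 0.0340), lost without null_EC 1, null_EC 2, ESC 1 or ESC 3 (adjusted p = 0.0653 to 0.132) and under both shifts.

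Of the 4 inhibitors, Timp2 and Timp3 were much lower in ESC than in each lung group. Timp3, which binds to the matrix and also inhibits ADAM and ADAMTS enzymes, had 10.51, 10.19 and 10.62 in ESC, 12.76, 12.50 and 12.47 in null_EB, 13.30, 13.30 and 13.27 in null_EC, and 12.44, 12.52 and 12.61 in WT_EC. null_EC was above all other arrays, ESC below them, and null_EB and WT_EC overlapped. Relative to WT_EC it was 1.70-fold higher in null_EC (log2 difference 0.76, SE 0.11, adjusted p = 0.00147), and it fell 1.64-fold in null_EB relative to null_EC (-0.71, SE 0.11, adjusted p = 0.00536). ESC was 7.20-fold lower than null_EC (-2.85, SE 0.11, adjusted p = 7.90e-09), 4.40-fold lower than null_EB (adjusted p = 8.02e-08) and 4.24-fold lower than WT_EC (adjusted p = 1.11e-07). All 5 calls held in every alternative.

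Timp2, which inhibits MMPs and also couples MMP2 to MMP14, had 10.32, 10.42 and 10.29 in ESC, 12.41, 12.40 and 12.49 in null_EB, 12.39, 12.33 and 12.37 in null_EC, and 12.17, 12.30 and 12.15 in WT_EC. Lung groups stayed within a narrow range, and ESC was far below. ESC was 4.05-fold lower than null_EC (log2 difference -2.02, SE 0.07, adjusted p = 2.52e-09), 4.25-fold lower than null_EB (-2.09, adjusted p = 2.07e-09) and 3.63-fold lower than WT_EC (-1.86, adjusted p = 5.25e-09), in every alternative. Timp2 was 1.17-fold higher in null_EB than in WT_EC (0.23, SE 0.07, adjusted p = 0.0430), which held without WT_EC 2 or ESC 2 and was lost in the other 10 such fits (adjusted p = 0.0573 to 0.148) and in the replicate block fit. That call was also lost under the housekeeping shift, with array weights and with only the 6 arrays compared. Mmp14 and Timp2 were thus lower in ESC together, whereas Mmp2 was lower in null_EB.

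Timp1, the inducible inhibitor, had 11.63, 11.94 and 11.72 in ESC, 11.40, 11.21 and 11.12 in null_EB, 11.43, 11.71 and 11.58 in null_EC, and 13.53, 11.70 and 12.50 in WT_EC. WT_EC 1 was highest, and WT_EC 2 lay among the ESC and null_EC arrays. Relative to WT_EC it was 2.52-fold lower in null_EB (log2 difference -1.34, SE 0.34, adjusted p = 0.0204), lost without null_EB 2 or null_EB 3 (adjusted p = 0.0689 to 0.0733). That call was also lost with only the 6 arrays compared (adjusted p = 0.158). null_EC averaged 11.57 ± 0.140 against 12.58 ± 0.918 in WT_EC (adjusted p = 0.0817), and without WT_EC 2 the log2 difference was -1.44 (adjusted p = 0.00158). Timp4 had low signal, with 6.49, 6.36 and 6.32 in ESC, 6.56, 6.64 and 6.64 in null_EB, 6.72, 6.73 and 6.77 in null_EC, and 6.56, 6.87 and 7.62 in WT_EC. It was lower in ESC than in WT_EC (-0.63, adjusted p = 0.0258), lost without ESC 2 or ESC 3 (adjusted p = 0.0678 to 0.0752).

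**Figure D4:**
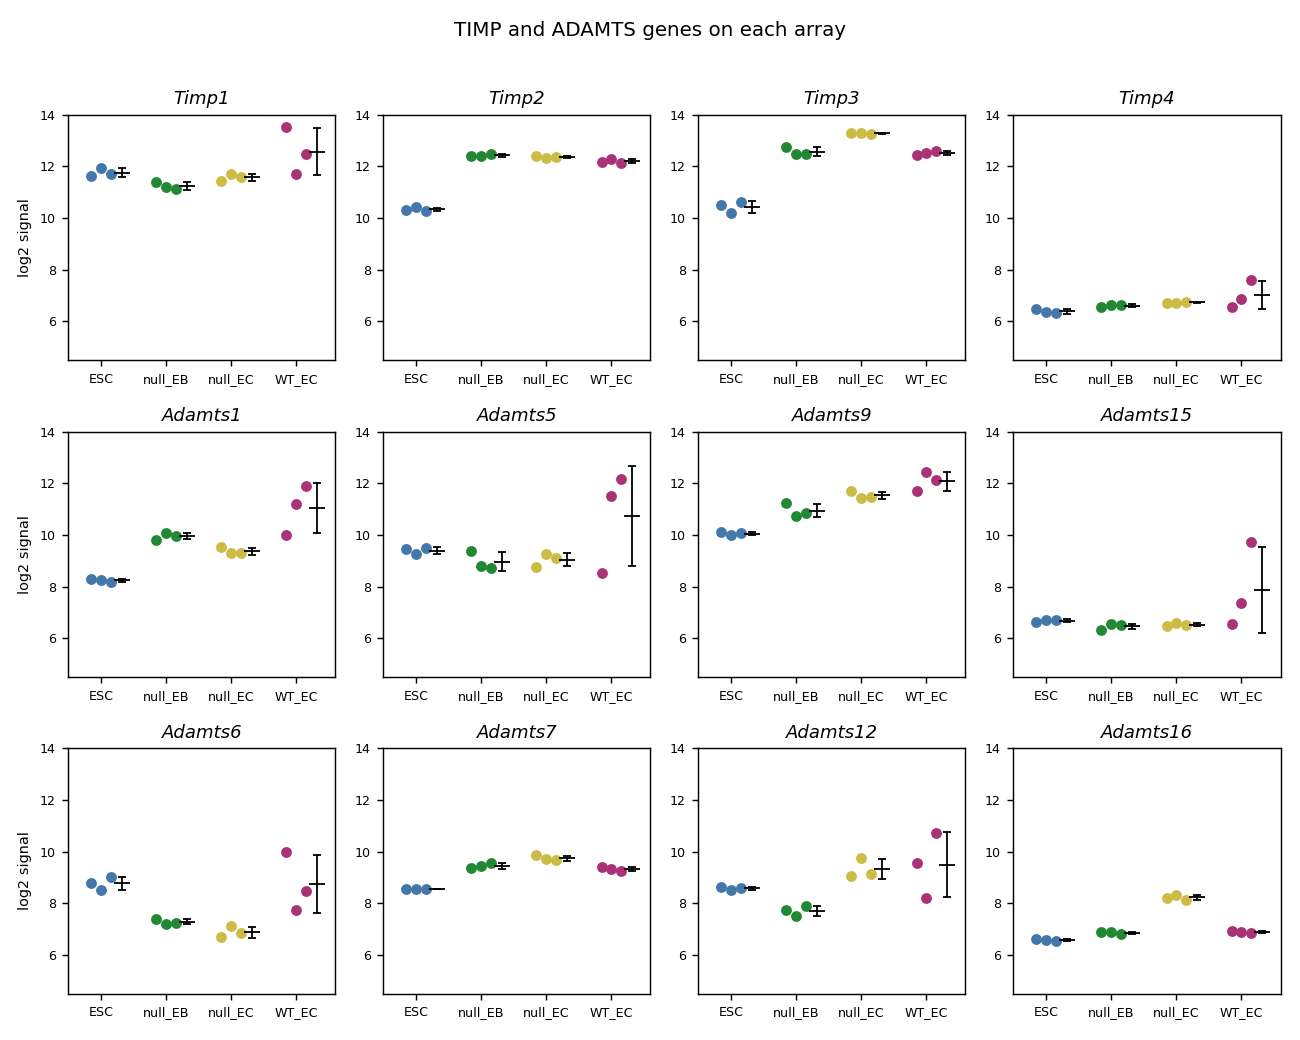
Log2 signal (y axis) of the 4 Timp genes and 8 Adamts genes in each group (x axis), with a coloured point for each array and a black bar for the mean ± SD of the 3 arrays. Adamts16 is raised in null_EC only, and Timp2 and Timp3 are lowest in ESC.

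Set against null_EC, null_EB had enzymes that changed in both directions. In the 9-array fit 12 of the 42 genes were lower and 5 higher, beside 11.7% and 13.7% of all genes. The higher share was thus near that of all genes. In the 9-array fit the 12 lower genes were Adamts12, Mmp2, Adamts16, Mmp8, Timp3, Adamts9, Adamts3, Mmp3, Mmp10, Timp1, Adamts7 and Adamts13, with differences from -1.61 to -0.28. The 5 higher genes were Mmp13, Adamts10, Adamts1, Mmp16 and Adamts6, with differences from 2.43 down to 0.40. Mmp3, Mmp8, Adamts6 and Adamts13 had low signal in both groups. Of the inhibitors, Timp1 (-0.33, adjusted p = 0.0236) and Timp3 were lower. Fibroblast markers had medians of 10.59 to 10.80 in null_EB against 11.29 to 11.46 in null_EC, mesothelium markers 11.28 to 11.44 against 12.13 to 12.21, and their part in these differences was not tested.

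**Figure D5:**
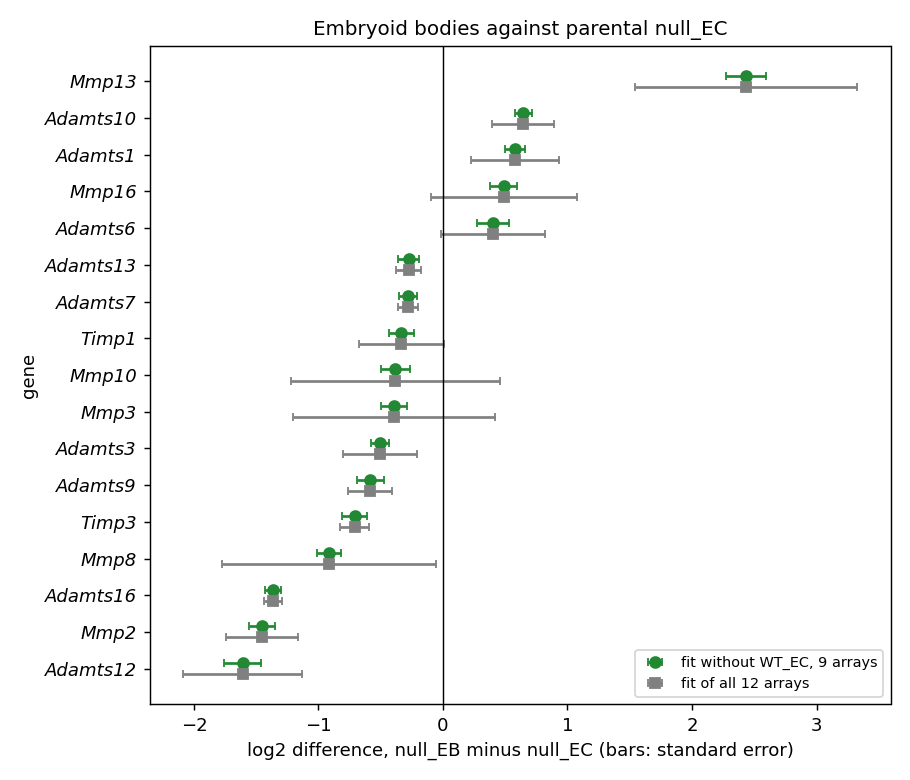
Log2 difference between null_EB and null_EC (x axis, bars for the SE) for the 17 genes (y axis) called in the fit of 9 arrays, with green circles for that fit and grey squares for the fit of all 12 arrays. Both fits give the same differences, and the bars of Mmp13, Mmp3, Mmp8 and Mmp10 are several times longer with the WT_EC arrays.

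Other genes of proteolysis around the cell, 34 measured of a list of 36 plasminogen system genes, ADAM proteases, cathepsins and regulators, were read beside these. Of the alternatives only leaving out 1 array was run for them, which was chosen after seeing the data. In null_EC against WT_EC, 1 was higher and 9 lower, beside 8.12% and 5.00% of all genes. Serpinb2, an inhibitor of urokinase, had 6.21, 6.29 and 6.46 in null_EC, against 12.73, 9.68 and 7.00 in WT_EC. All null_EC arrays were below the WT_EC arrays, which spread over several log2 units. Its log2 difference was -3.49 (SE 1.01, adjusted p = 0.0456), with -2.02 without WT_EC 1 and -4.89 without WT_EC 3, and the call was lost without any 1 array of the other 3 groups (adjusted p = 0.0683 to 0.136). Tll1, a tolloid-like procollagen proteinase, was 10.3-fold lower (-3.36, adjusted p = 0.00293), a call kept on leaving out any array, with -2.56 without WT_EC 1 and -4.12 without WT_EC 2. Ctsl, cathepsin L, was 1.22-fold higher (0.29, adjusted p = 0.0354), lost in 7 of the 12 fits that left out 1 array.

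In null_EB against null_EC, 2 of the 34 were higher and 2 lower, beside 2.90% and 2.50% of all genes. Plau, urokinase, rose 2.67-fold (log2 difference 1.42, SE 0.29, adjusted p = 0.0184), lost without null_EC 2, null_EC 3 or any null_EB array (adjusted p = 0.0620 to 0.0892). Adam15, an ADAM protease, rose 1.34-fold (adjusted p = 0.0442), lost without any 1 ESC, null_EB or null_EC array (adjusted p = 0.0624 to 0.174). Thbs2, thrombospondin-2, an antiangiogenic matrix protein, fell 3.71-fold (-1.89, adjusted p = 0.0287), lost in 8 of the 12 fits, all but those without ESC 2 or a WT_EC array (adjusted p = 0.0501 to 0.131). Bsg, basigin, known as an inducer of MMPs, fell 1.30-fold (-0.38, adjusted p = 0.00888), lost without null_EC 2, null_EB 2 or null_EB 3 (adjusted p = 0.0505 to 0.0531). In null_EB against WT_EC, 1 was higher and 8 lower, beside 12.3% and 6.19% of all genes. The higher one was Adamtsl5 (0.41, adjusted p = 0.0384), lost in 10 of the 12 fits, all but those without WT_EC 3 or ESC 2. The 8 lower genes were led by Tll1 (-3.34, adjusted p = 0.00241), with -2.54 without WT_EC 1 and -4.11 without WT_EC 2, and Thbs2 (-2.27, adjusted p = 0.00438), with -2.88 without WT_EC 2.

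In ESC against null_EC, 4 of the 34 were higher and 14 lower, beside 22.9% and 25.1% of all genes. Tll1 (log2 difference 2.94, adjusted p = 0.00122) and A2m, alpha-2-macroglobulin, a broad protease trap (1.89, adjusted p = 0.00239), were higher. Htra1, a secreted serine protease (-1.75, adjusted p = 2.77e-06), and Adam10, a sheddase (-1.69, adjusted p = 0.000228), were lower. In ESC against null_EB, 6 were higher and 13 lower, beside 21.8% and 23.0% of all genes. The higher genes were led by Tll1 (2.92, adjusted p = 0.00137) and Thbs2 (2.79, adjusted p = 0.000258). The lower ones were led by Adam10 (-1.81, adjusted p = 0.000152) and Plaur, the urokinase receptor (-1.45, adjusted p = 0.0366). The Plaur call was lost without any 1 ESC, null_EB or null_EC array (adjusted p = 0.0512 to 0.0922). In ESC against WT_EC, 1 was higher and 19 lower, beside 25.4% and 21.7% of all genes. The higher one was Adam19 (0.87, adjusted p = 0.0182), lost without ESC 2 (adjusted p = 0.0532). Of the 19 lower genes, Serpinb2 (-3.29, adjusted p = 0.0207) was lost without ESC 1 or ESC 3 (adjusted p = 0.0537 to 0.0553), with -1.83 without WT_EC 1 and -4.69 without WT_EC 3, and Adam12 (-2.85, adjusted p = 5.94e-08) was kept on leaving out any array. The medians of the 34 ran from -0.76 in ESC against WT_EC to -0.01 in null_EB against null_EC.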

How the data were processed

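The authors deposited 1 table of log2 signals, 1 value per probe set and array, made with RMA in Affymetrix Expression Console 1.2.1, per the submitters' processing notes. RMA makes the distributions of the arrays equal, so a change shared by most genes would not be seen. The label protocol names a human array, while the probe set identifiers match the mouse platform. Of 35556 probe sets, 21789 had 1 gene symbol and were used, 1 per gene. No depth applies to arrays, and their number limits the precision.

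All 12 arrays and 19938 genes were modelled with group means in limma 3.58.1 (R 4.3.3), checked on simulated data. The simulation gave a gene the same SD in every group, so it cannot check tests against WT_EC, which spread more. Genes with values on each array are the Timp genes, Mmp2, Mmp9, Mmp14 and, per comparison, up to 5 called genes in each direction whose groups did not overlap. Other genes given by array were chosen after their values were seen. Up to 2 called genes in each direction are named of the proteolysis list. The members and lists were chosen with earlier results of these data known. Same-numbered arrays did not deviate together (correlations -0.256 to 0.225), so the numbers were not taken as pairs. The 10 kinds of alternative included scaling, array weights, a filter on dim genes and leaving out each array, which for the proteolysis list was chosen after seeing the data.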

Additional observations from a re-analysis of the deposited data

How the results depend on the processing

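Counts of genes called among the 42 moved with the arrays in the fit, the array weights and the scaling. With only the 6 arrays compared, null_EC against WT_EC had 3 (beside 8 with all arrays), null_EB against null_EC had 18 (beside 3), null_EB against WT_EC had 3 (beside 13), ESC against null_EC had 34 (beside 17), ESC against null_EB had 32 (beside 17) and ESC against WT_EC had 12 (beside 17). Without the WT_EC arrays, null_EB against null_EC had 17, ESC against null_EC had 33 and ESC against null_EB had 32. With array weights, which gave the WT_EC arrays the least weight, null_EC against WT_EC had 16, null_EB against null_EC had 20, ESC against null_EC had 34, ESC against null_EB had 36 and ESC against WT_EC had 20. The housekeeping shift gave 32 in ESC against WT_EC, beside 17. A further threshold of 2-fold left 11, 10 and 10 in ESC against null_EC, null_EB and WT_EC. With a replicate block null_EC against WT_EC had 7, null_EB against null_EC had 3 and against WT_EC 12, while ESC had 16 against null_EC, 17 against null_EB and 14 against WT_EC, and the numbers did not pair the arrays. Leaving out 1 array gave null_EC against WT_EC 6 to 16, null_EB against null_EC 2 to 7 and against WT_EC 4 to 19, and ESC 12 to 24 against null_EC, 14 to 23 against null_EB and 13 to 25 against WT_EC. Counts moved by over 1.5 times in null_EC against WT_EC without WT_EC 1 (15) or WT_EC 2 (16), in null_EB against null_EC without WT_EC 1 (7), WT_EC 2 (7) or WT_EC 3 (6), and in null_EB against WT_EC without any null_EC array (8 each), null_EB 1 (5), null_EB 2 (5), null_EB 3 (4), ESC 1 (8) or ESC 3 (8). Of the 75 calls, 43 held in every alternative.

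Of the 252 differences (42 genes in 6 comparisons), 69 changed sign in at least 1 alternative, 0 of them called with all arrays, and 5 were called with the turned sign. Without WT_EC 1 the log2 difference of Mmp10 from WT_EC was 0.61 in ESC, 0.77 in null_EB and 1.15 in null_EC, the highest values on leaving out 1 array, while the lowest were -1.61, -1.44 and -1.06, all without WT_EC 2. That of Mmp9 in ESC against WT_EC was 0.68 without WT_EC 1 and -0.97 without WT_EC 2. That of Mmp16 in null_EC against WT_EC was 0.75 without WT_EC 2 and -0.68 without WT_EC 1. Each had missed the threshold with all arrays, and the cause was not tested. Signal over background limits the 14 genes with low signal in every group.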

Other observations

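Of the 7 fibroblast markers, 5 were above low signal in ESC, as in null_EB and null_EC. Dpt and Lum had low signal in these 3 groups. Dcn, decorin, had log2 signals of 10.94, 10.67 and 11.18 in ESC, 13.28, 13.17 and 13.20 in null_EB, 13.46, 13.43 and 13.50 in null_EC, and 13.34, 13.65 and 13.43 in WT_EC. Col1a1, a chain of collagen I, had 10.76, 11.05 and 10.56 in ESC, 11.05, 10.92 and 10.87 in null_EB, 11.56, 12.09 and 11.78 in null_EC, and 11.74, 12.39 and 12.60 in WT_EC. Lum, lumican, had 7.05 to 7.14 in ESC, 5.62 to 5.94 in null_EB, 6.07 to 7.01 in null_EC and 6.98 to 10.58 in WT_EC. Dpt, dermatopontin, had 5.89 to 6.07 in ESC, 5.48 to 5.75 in null_EB, 5.56 to 5.62 in null_EC and 7.44 to 9.57 in WT_EC. Whether ESC were grown on feeder cells is not stated, and the part of other cells in the ESC signals of Mmp2, Mmp3 and Mmp13 was not tested.

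Lyz2, a macrophage gene, had a log2 signal of 6.82 to 7.22 in ESC, 5.43 to 5.53 in null_EB, 5.41 to 5.91 in null_EC, and 9.05, 5.44 and 12.31 in WT_EC. Of the 9 macrophage and leukocyte markers, 8 were highest on WT_EC 3 and lowest on WT_EC 2 among the 3 WT_EC arrays, as Mmp8 was. Cd14, the other one, had 8.48, 10.20 and 8.73. The order was not particular to these markers. Pecam1, Cdh5, Tek, Tie1, Erg, Emcn and Cldn5 of the endothelium markers had it too, whereas Kdr and Esam did not. Adamts12 (9.55, 8.20 and 10.74) and Mmp12 (7.13, 6.66 and 7.46) also had this order, and its source was not tested.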
